A study of Mus musculus with 4 samples.

Results

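Solute carriers are membrane proteins that move sugars, amino acids, ions, metals, vitamins and metabolites across the plasma membrane or the membranes of organelles. Their symbols begin with Slc and a family number, or with Slco for the carriers of organic anions. All 144 genes whose symbols follow this form were taken from the 8699 genes listed in the deposited tables. The rule used the symbol alone, but it was set with earlier results of these data known. Carriers that the tables do not list could not enter. They came from 42 families, with 23 mitochondrial carriers (Slc25) and 12 nucleotide sugar carriers (Slc35) as the fullest. At least 2 of them are not carriers. Slc9a3r1 encodes a scaffold protein that holds transporters at the membrane, and Slc4a1ap an adaptor named after the red cell anion exchanger. Slc3a2 encodes a heavy subunit of amino acid transporters.

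RNA was counted in sperm from adult males of the inbred strain C57BL/6J, aged about 11 weeks. One group had been given nicotine (replicates 1 and 2) and the other saline (replicates 1 and 2). Sperm were pressed out of the cauda epididymidis, where ripe sperm are stored, and the labels name no step that removes other cells. The labels used here state no dose and no route. They also do not tie the libraries to separate mice, and the p-values thus reflect only how far these libraries scatter, which may be technical.

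In ripe sperm such proteins supply fuel to the tail, set internal pH and chloride, and carry metabolites into mitochondria. Sperm make little or no new RNA, so the transcripts found in them are largely left from their development in the testis. Other carriers are typical of the epididymal duct, which adjusts bicarbonate, sodium, carnitine and taurine around the stored sperm, or of macrophages, muscle and vessels.

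The libraries held 3798794 and 5216745 reads with nicotine, and 3999449 and 3856022 with saline. Lars2 and Gm42418 took 74.9 to 90.6% of them. Outside these genes, nicotine replicate 1 kept 358477 reads, against 931578 to 1176304 in the other libraries. The carriers had 1157 and 7223 reads with nicotine, and 8000 and 8211 with saline. The median carrier had 4 and 27.5 reads with nicotine and 35 in each saline library. Of the 144 genes, 57 had 3 reads or fewer in nicotine replicate 1, and 6 had none there.

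Tested with edgeR's quasi-likelihood test over all genes, 5 of 140 tested carriers were higher in the nicotine libraries and 2 lower. The higher ones were the fructose carrier Slc2a5, the testis organic anion carrier Slco6d1, the orphan carrier Slc6a21, the zinc importer Slc39a10 and the nucleotide sugar carrier Slc35a5. The lower ones were the creatine carrier Slc6a8 and the macrophage metal carrier Slc11a1. These counts are 3.57% and 1.43% of the tested carriers, beside 8.27% of all tested genes higher and 0.931% lower. A further 4 listed carriers had too few reads to be tested.

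RefSeq promoter sequences (GRCm38.p6, from 250 bases before to 50 after the annotated start) are shown for 3 of the higher carriers and for Slc11a1, so that the genes with the largest changes in each direction can be seen. Capitals mark TGACG, the core bound by the CREB and CREM family of factors, and GAGGAA, a core bound by the myeloid factor PU.1, each on either strand.
Slco6d1, chr1:98420874-98421173, plus strand: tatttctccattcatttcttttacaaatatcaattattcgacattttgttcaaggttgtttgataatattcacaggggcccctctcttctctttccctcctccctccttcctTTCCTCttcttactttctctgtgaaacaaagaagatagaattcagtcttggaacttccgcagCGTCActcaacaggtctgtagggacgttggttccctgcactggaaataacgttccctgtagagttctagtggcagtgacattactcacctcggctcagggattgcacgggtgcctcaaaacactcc
Slc6a21, chr7:45282623-45282922, plus strand: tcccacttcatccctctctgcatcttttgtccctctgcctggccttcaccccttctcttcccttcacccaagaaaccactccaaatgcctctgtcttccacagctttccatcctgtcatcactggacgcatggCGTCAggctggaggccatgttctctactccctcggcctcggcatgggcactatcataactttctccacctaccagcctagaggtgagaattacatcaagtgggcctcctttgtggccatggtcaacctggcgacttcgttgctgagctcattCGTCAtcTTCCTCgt
Slc2a5, chr4:150119094-150119393, plus strand: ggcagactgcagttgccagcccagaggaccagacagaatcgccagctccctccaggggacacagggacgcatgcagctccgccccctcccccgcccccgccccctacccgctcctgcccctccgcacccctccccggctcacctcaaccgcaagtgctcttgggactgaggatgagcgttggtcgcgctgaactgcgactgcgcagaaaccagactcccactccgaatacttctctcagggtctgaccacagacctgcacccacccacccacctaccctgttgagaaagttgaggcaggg
Slc11a1, chr1:74374953-74375252, plus strand: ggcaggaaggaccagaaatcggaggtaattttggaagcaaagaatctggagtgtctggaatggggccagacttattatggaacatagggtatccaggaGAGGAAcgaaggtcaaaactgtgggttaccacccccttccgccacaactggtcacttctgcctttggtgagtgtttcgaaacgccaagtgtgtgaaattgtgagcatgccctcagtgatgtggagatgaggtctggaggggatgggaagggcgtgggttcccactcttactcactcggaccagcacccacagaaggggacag
The Slco6d1 window held TGACG or its reverse complement CGTCA 1 time and the Slc6a21 window 2 times, while the Slc2a5 and Slc11a1 windows held neither. GAGGAA or TTCCTC occurred 1 time each in the windows of Slco6d1, Slc6a21 and Slc11a1, and not in that of Slc2a5. From its first CGTCA to its end, the Slc6a21 window can be read as codons with no stop. Its marked motifs may thus lie in coding sequence, and this window may not be a promoter. Of the 145 windows of the 112 carriers with an entry, 28.3% held TGACG and 21.4% held GAGGAA. Among all 32851 windows these shares were 20.8% and 28.3%. The full palindrome TGACGTCA, which contains the shorter core, stood in 2.07% of carrier windows and 1.79% of all. The motifs were picked after the expression values were known, and a match is a run of letters, not a measured site.

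Levels are given below as CPM, read counts brought to one common library size after TMM scaling, and changes as log2 fold changes of nicotine over saline with a standard error. The TMM factor was 0.3245 for nicotine replicate 1, and 1.113 to 1.681 for the other libraries. Whether the groups overlapped in a gene was judged on these scaled levels, and thus depends on the scaling. Calls required a p under 0.05 after Benjamini-Hochberg adjustment over all tested genes. After TMM scaling the median change was -0.33 over the tested carriers and -0.14 over all tested genes.

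Among sugar carriers, Slc2a5 had 15 and 83 reads in nicotine replicates 1 and 2, against 24 and 13 reads in saline replicates 1 and 2. After scaling this was 12.2 and 14.3 CPM with nicotine, and 3.57 and 2.05 CPM with saline. Both nicotine libraries thus lay above both saline libraries. The change was 2.24 ± 0.55 (adjusted p = 0.0353, edgeR, n = 2 per group). The protein takes up fructose, the main sugar of seminal fluid, and is found in testis and sperm.

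Slco6d1, an organic anion carrier of the rodent testis, had 11 and 31 reads with nicotine and 9 and 5 reads with saline. Its levels were 8.93 and 5.35 CPM with nicotine, and 1.34 and 0.788 CPM with saline. The groups did not overlap, and the change was 2.63 ± 0.68 (adjusted p = 0.0400, edgeR). Its reads met the test's filter on low counts only in the nicotine libraries, where it was high. With no such filter the adjusted p was 0.0491 (edgeR). With limma-voom the adjusted p was 0.0617. The gene has close relatives in the same family, and reads shared with them would make its value uncertain.

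Slc6a21 belongs by name to the sodium- and chloride-dependent neurotransmitter carriers, and its solute is not established. It had 14 and 63 reads with nicotine, and 9 and 14 with saline. The scaled values, 11.4 and 10.9 CPM with nicotine against 1.34 and 2.21 CPM with saline, were the closest pair of nicotine values among the 5 higher carriers. Its change of 2.63 ± 0.58 had the lowest adjusted p of any carrier (adjusted p = 0.0329, edgeR, n = 2 per group).

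Slc39a10, which brings zinc into the cell, had 73 and 117 reads with nicotine and 62 and 54 with saline. These correspond to 59.2 and 20.2 CPM with nicotine, and 9.23 and 8.51 CPM with saline. Both nicotine values were higher, but they lay far apart. The change was 2.12 ± 0.59 (adjusted p = 0.0495, edgeR). It was 1.20 without nicotine replicate 1 (adjusted p = 0.0589) and 2.81 without nicotine replicate 2. The adjusted p was 0.0538 under both other filters on low counts (edgeR) and 0.0746 with quantile normalisation (limma).

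Slc35a5, a member of the nucleotide sugar carriers of the secretory pathway, had 19 and 71 reads with nicotine, and 25 and 22 with saline. It reached 15.4 and 12.2 CPM with nicotine against 3.72 and 3.47 CPM with saline, with narrow spread in both groups. Its change was 1.91 ± 0.51 (adjusted p = 0.0449, edgeR). It was the sole called gene of the 12 tested Slc35 members, whose median was -0.44. Of these members, 6 lay lower in both nicotine libraries than in both saline libraries, beside 31.0% of all tested genes.

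Of the lower carriers, Slc6a8 imports creatine, which feeds the phosphocreatine store of muscle and sperm. It had 2 and 11 reads with nicotine, against 54 and 79 with saline. The scaled levels were 1.62 and 1.90 CPM with nicotine and 8.04 and 12.4 CPM with saline. The groups stood apart, and the change was -2.48 ± 0.62 (adjusted p = 0.0375, edgeR, n = 2 per group, and 0.0508 with limma-voom). Its reads met the filter on low counts only in the saline libraries, where it was high. With no such filter the adjusted p was 0.0381 (edgeR).

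Slc11a1 encodes a proton-coupled metal carrier of the phagosome of macrophages. It was counted by 1 read in each nicotine library, against 21 and 48 reads in the saline libraries. From these reads the ratio of nicotine to saline was 0.0539, with an exact 95% interval of 0.0064 to 0.202 that covers counting error only. The fitted change was -4.03 ± 1.02 (adjusted p = 0.0379, edgeR). It was -2.62 without nicotine replicate 2 (adjusted p = 0.119) and -1.92 with quantile normalisation (adjusted p = 0.157, limma). With limma-voom its adjusted p was also 0.157. Slc11a1 too met the filter on low counts only in the saline libraries, and with no such filter its adjusted p was 0.0427 (edgeR).

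**Figure D1:**
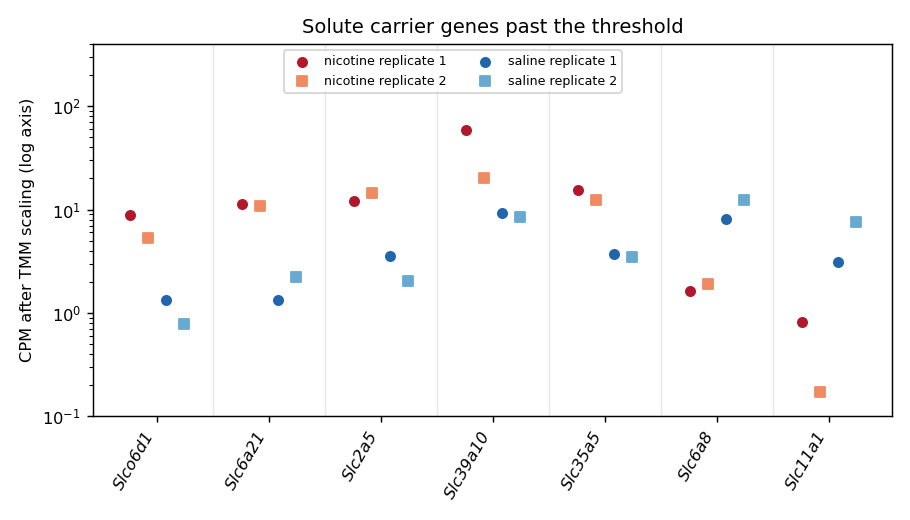
Levels of the 7 called solute carrier genes in each library, in CPM after TMM scaling on a log axis, with 1 point per library (red and orange, nicotine; blues, saline). For every gene the nicotine points lie on 1 side of the saline points, and the nicotine points of Slc39a10 lie far apart, at 59.2 and 20.2 CPM.

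The 7 calls were not made with 1 saline library, or after scaling by all reads or by reads outside Lars2 and Gm42418. Scaling by median-of-ratios size factors kept all 7. With 1 saline library, the spread comes from the nicotine libraries alone, the lone saline library is assumed to vary like them, and few genes of any kind passed. With saline replicate 1 left out, 0 carriers were called, where 0.455% of all genes were, and 12 carriers had an unadjusted p under 0.05. Without saline replicate 2, 0 carriers were called, where 0.104% of all genes were, and 8 had an unadjusted p under 0.05. The fold changes stayed of similar size without saline replicates 1 and 2, at 1.95 and 1.85 for Slc35a5, 2.29 and 3.0 for Slc6a21, 2.17 and 2.05 for Slc39a10, 2.67 and 1.87 for Slc2a5, 3.06 and 2.31 for Slco6d1, -2.78 and -2.16 for Slc6a8, and -4.48 and -3.21 for Slc11a1. Without nicotine replicate 1, 8 carriers were called (14.1% of all genes), 6 of them among the 7. Without nicotine replicate 2, 26 were called (27.5% of all genes), again including 6 of the 7. Scaling by all reads, or by reads outside Lars2 and Gm42418, left 0 carriers called by edgeR, with 14 and 33 at an unadjusted p under 0.05. These scalings moved the median of the carriers to -1.42 and -0.94, and that of all genes to -1.28 and -0.77. The signs of the 7 changes were the same in each of the 13 alternatives.

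In the same libraries, marker genes of several cell types moved with the groups, and their counts stand beside 8.27% of all tested genes higher and 0.931% lower. The sperm and germ cell list (18 of 20 markers listed) summed to 15330 and 10390 CPM with nicotine, and 2784 and 2375 CPM with saline, and 10 of its 17 tested genes rose. The leukocyte list (9 of 15) summed to 77.1 and 64.3 CPM with nicotine and 154.7 and 173 CPM with saline, and 1 of 9 tested genes fell, Cd14. Cd14 and Cd68 had 0 reads in nicotine replicate 1. The list for connective tissue, smooth muscle and vessels (11 of 13) summed to 537 and 1353 CPM with nicotine and 3912 and 1983 CPM with saline, and 2 of its 10 tested genes fell. Lum was at 0 in nicotine replicate 1 and saline replicate 2. The epididymal epithelium list (12 of 17) summed to 2111 and 5853 CPM with nicotine, and 1778 and 5074 CPM with saline, so that its sum split the replicates. Of its 12 tested genes 1 rose, Cftr, with 21.1 and 7.07 CPM with nicotine and 1.79 and 0.63 CPM with saline (3.40 ± 0.76, adjusted p = 0.0329, edgeR). Erythroid markers (5 of 7) ranged from 96.6 to 403 CPM with nicotine and from 164.9 to 286 CPM with saline. Of 4 adipose markers 0 were listed. The part of these cell types in the carriers' changes was not tested. In bulk libraries, fewer cells of a type and less RNA per cell cannot be told apart.

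Carriers known from testis and sperm were then examined as a list chosen from general knowledge, but with earlier results of these data known. Of 35 such genes 12 were listed and 10 were tested. Of these 10, 2 rose (Slc2a5 and Slco6d1) and 0 fell, beside 8.27% and 0.931% of all tested genes, and 6 had both nicotine libraries above both saline libraries. The share with that separation was 13.6% over the tested carriers and 27.4% over all tested genes. The list's median log2 fold change was 0.96, beside -0.14 for all tested genes. Its summed level was 102 and 121 CPM with nicotine, and 79.7 and 78.0 CPM with saline. Relative to the reads outside Lars2 and Gm42418, the order was not kept, with 0.0351% and 0.0597% with nicotine and 0.0534% and 0.0531% with saline.

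The other 4 separated genes of the list did not pass the test. Relative to the reads outside Lars2 and Gm42418, Slc2a3, Slc16a7 and Slc26a8 were not separated, as nicotine replicate 1 lay below a saline library. It had 23, 6 and 5 reads for these genes, of 358477. Saline replicate 1 had 99 for Slc2a3 and 24 for Slc26a8, of 1002360. Saline replicate 2 had 26 for Slc16a7, of 931578. Slc22a16, a carnitine carrier of testis and epididymis in humans, had 9.74 and 6.21 CPM with nicotine and 3.72 and 1.10 CPM with saline (1.64 ± 0.69, adjusted p = 0.177, edgeR, n = 2 per group). Slc16a7, a carrier of lactate and pyruvate found in the sperm tail, had 4.87 and 11.4 CPM with nicotine and 2.68 and 4.10 CPM with saline (1.36 ± 0.60, adjusted p = 0.197, edgeR). Slc26a8, an anion carrier that mouse sperm need to swim, had 4.06 and 9.83 CPM with nicotine and 3.57 and 2.68 CPM with saline (1.26 ± 0.60, adjusted p = 0.235, edgeR). Without nicotine replicate 1, Slc16a7 and Slc26a8 passed (1.76 and 1.66, adjusted p = 0.0274 and 0.0413, edgeR), and without nicotine replicate 2 their values were 0.59 and 0.45 (adjusted p = 0.626 and 0.735). Slc22a16 passed without nicotine replicate 2 (2.08, adjusted p = 0.0474, edgeR) and not without nicotine replicate 1 (1.38, adjusted p = 0.211). The glucose carrier of sperm Slc2a3 had 18.7 and 18.1 CPM with nicotine and 14.7 and 8.51 CPM with saline (0.66 ± 0.49, adjusted p = 0.457, edgeR), and its value was -0.56 when scaled by all reads.

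Slc9b1 and Slc22a14 had too few reads for the test. Slc9b1, a sodium-proton exchanger of the sperm tail, had 7 and 17 reads with nicotine against 3 and 3 with saline, a ratio of 7.43 with an exact 95% counting interval of 2.96 to 22.2. Slc22a14, which mouse sperm need for riboflavin transport, had 4 and 30 reads with nicotine against 9 and 8 with saline, a ratio of 3.72 (2.02 to 7.09). In both, each nicotine library lay above both saline libraries after scaling. Such intervals compare reads of pooled libraries and leave out the spread between libraries.

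The remaining members of the list showed no separation. The sperm anion exchanger Slc26a3 had 3.25 and 6.90 CPM with nicotine and 5.21 and 6.46 CPM with saline. Slc9a8, a sodium-proton exchanger needed for the acrosome in mice, had 8.93 and 7.59 CPM with nicotine and 8.78 and 8.03 CPM with saline. Slc7a4, a relative of the cationic amino acid carriers, had 20.3 and 31.6 CPM with nicotine and 31.0 and 40.3 CPM with saline. Slc2a8, an intracellular hexose carrier, had 2.43 and 1.72 CPM with nicotine and 3.28 and 2.21 CPM with saline. Their log2 fold changes were -0.07, -0.05, -0.44 and -0.50 in this order, all with adjusted p of 0.629 or more by edgeR.

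A second list, chosen in the same way, held carriers known from the epididymal duct. Of 28 genes 15 were listed and all 15 were tested. By edgeR 0 were called, with 1 at an unadjusted p under 0.05, and DESeq2 called 0. Their median log2 fold change was -0.62. In 5 of them both nicotine libraries lay below both saline libraries, beside 31.4% of tested carriers and 31.0% of all tested genes. The list summed to 90.9 and 162 CPM with nicotine, and to 173 and 207 CPM with saline.

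Slc9a3r1, the scaffold, had 17.0 and 47.6 CPM with nicotine and 43.2 and 58.8 CPM with saline. Slc22a5, which imports carnitine into cells, had 2.43 and 22.1 CPM with nicotine and 13.1 and 24.3 CPM with saline. In both genes nicotine replicate 1 was the low library, and nicotine replicate 2 lay between the saline libraries. The taurine carrier Slc6a6 had 13.8 and 21.4 CPM with nicotine and 29.9 and 38.8 CPM with saline, with no overlap (-0.93 in log2 fold change, adjusted p = 0.275, edgeR). Slc38a2, a sodium-coupled carrier of neutral amino acids, had 2.43 and 6.38 CPM with nicotine and 13.1 and 12.9 CPM with saline (-1.38 ± 0.55, adjusted p = 0.155, edgeR, n = 2 per group).

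The other separated members were Slc20a1, a phosphate carrier, with 1.62 and 4.48 CPM with nicotine and 5.81 and 5.04 CPM with saline, and Slc39a1, a zinc importer, with 3.25 and 4.66 CPM with nicotine and 8.19 and 6.77 CPM with saline. Slc9a3, a sodium-proton exchanger of absorbing epithelia, had 1.62 and 3.62 CPM with nicotine and 4.02 and 5.99 CPM with saline and completes the 5. The lactate carrier Slc16a1 had 12.2 and 21.2 CPM with nicotine and 13.1 and 19.4 CPM with saline. The glutamate carrier Slc1a1 had 3.25 and 11.6 CPM with nicotine and 6.25 and 8.98 CPM with saline. For these last genes the spread within each group covered the difference between the groups. The bicarbonate carriers Slc4a2 and Slc4a4, the chloride cotransporter Slc12a2, the nucleoside carrier Slc29a1 and the organic anion carrier Slco4a1 had group means from 1.70 to 4.34 CPM with nicotine and from 3.48 to 6.00 CPM with saline, and overlapped.

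**Figure D2:**
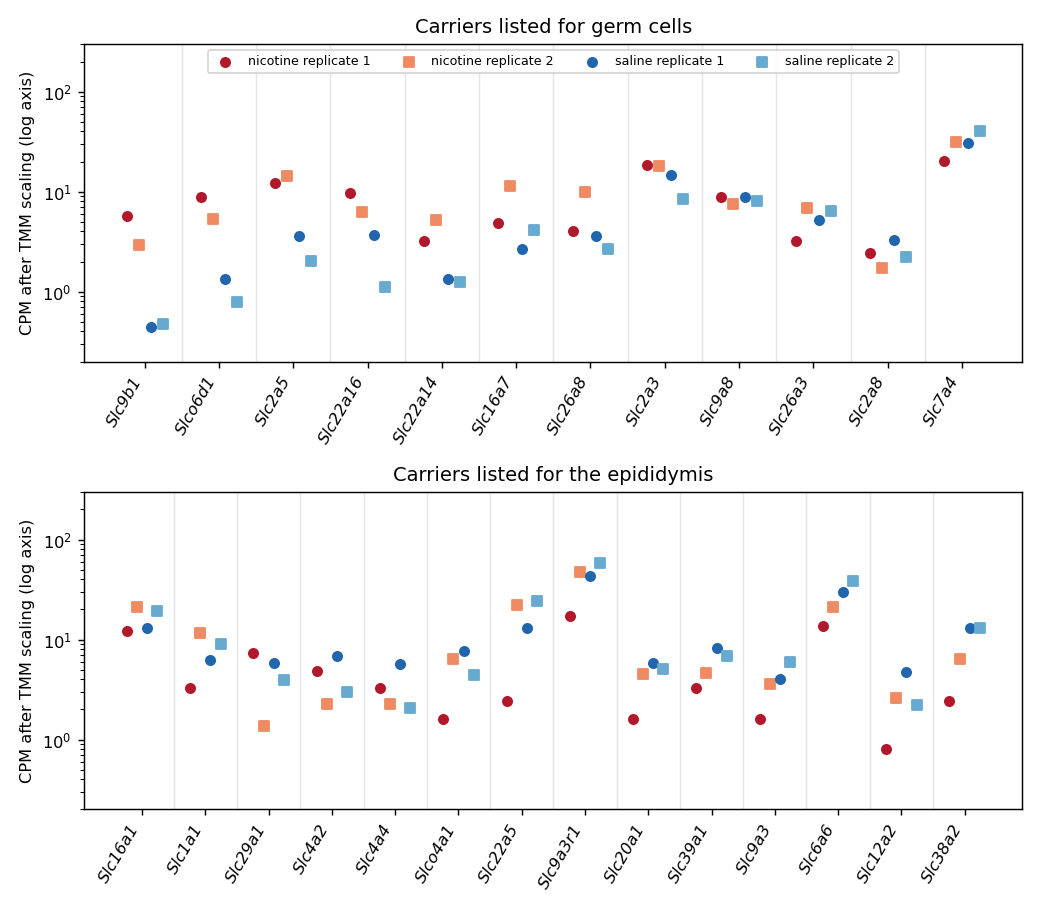
Levels of the 12 listed carriers known from germ cells (upper panel) and 14 of those known from the epididymis (lower panel), in CPM after TMM scaling on a log axis, with 1 point per library. Genes are ordered by the ratio of nicotine to saline means. In the upper panel 8 genes have both nicotine points above both saline points, 2 of them untested, and in the lower panel 0 do.

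By level per length, which allows genes to be set side by side, the carriers spanned a mean of 0.210 to 21.6 CPM per kilobase over the 4 libraries, with a median of 1.21. The scaffold gene Slc9a3r1 led with 8.85 and 24.7 CPM per kilobase with nicotine, and 22.4 and 30.5 with saline. Slc25a39, a mitochondrial carrier needed for glutathione import, came next with 28.3 and 23.3 CPM per kilobase with nicotine, against 11.6 and 12.4 with saline. Both nicotine libraries were above both saline libraries, but the gene did not pass (1.10 ± 0.46, adjusted p = 0.173, edgeR, n = 2 per group), and its value was -0.18 when scaled by all reads.

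Slc35f2, a Slc35 member of the plasma membrane, had 6.32 and 18.7 CPM per kilobase with nicotine and 11.7 and 19.6 with saline. Slc25a5, an adenine nucleotide exchanger of mitochondria, had 5.42 and 16.8 CPM per kilobase with nicotine, and 10.04 and 16.5 with saline. Slc25a4, its counterpart in muscle and heart, had 4.83 and 11.0 CPM per kilobase with nicotine, and 15.0 and 8.77 with saline. Slc7a15 had 4.07 and 15.1 CPM per kilobase with nicotine and 9.81 and 10.7 with saline. In these genes nicotine replicate 1 was the lowest library and nicotine replicate 2 was within or above the saline values. From Slc35f2 to Slc25a4, neighbours in this order differed by less than the spread between libraries.

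The rest of the 12 most abundant carriers were Slc7a4, Slc22a5, Slc24a3, Slc8a1, Slc38a6 and Slc31a2, with means from 7.74 down to 4.36 CPM per kilobase. Slc24a3, which exchanges sodium for calcium and potassium, had 0.356 and 4.23 CPM per kilobase with nicotine and 7.63 and 7.11 with saline (-1.51 ± 0.72, adjusted p = 0.236, edgeR), and it passed when nicotine replicate 2 was left out. Slc8a1, the sodium-calcium exchanger of heart and smooth muscle, had 5.81 and 2.12 CPM per kilobase with nicotine and 7.26 and 3.22 with saline. Slc38a6, a relative of the sodium-coupled amino acid carriers, had 4.59 CPM per kilobase in both nicotine libraries, and 3.35 and 4.92 with saline. The copper carrier Slc31a2 had 1.20 and 6.79 CPM per kilobase with nicotine and 4.17 and 5.27 with saline.

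**Figure D3:**
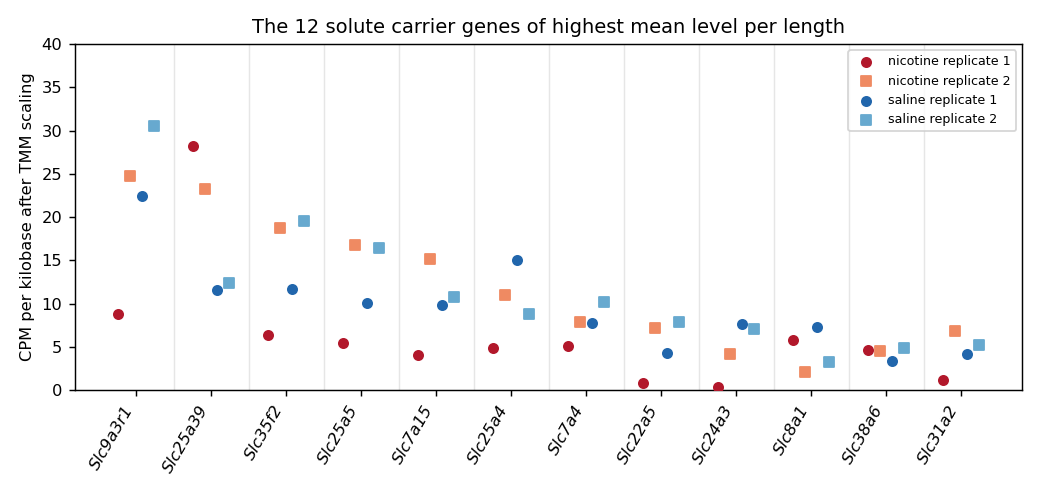
The 12 solute carrier genes of highest mean level, in CPM per kilobase after TMM scaling on a linear axis from 0, with 1 point per library. Slc25a39 has both nicotine points (28.3 and 23.3) above both saline points, while for Slc9a3r1, Slc35f2, Slc25a5 and Slc7a15 nicotine replicate 1 is the lowest point.

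The carriers were then grouped by solute. Carriers of amino acids, peptides and neurotransmitters had the lowest class median, -0.70 over 22 tested genes, with Slc6a21 higher and Slc6a8 lower. In 12 of the 23 listed genes of this class both nicotine libraries lay below both saline libraries, and in 1 above, beside 31.0% below and 27.4% above over all tested genes. Slc15a3, a lysosomal carrier of peptides and histidine that immune cells express, had 0 and 4 reads with nicotine against 18 and 44 with saline (-3.10 ± 0.94, adjusted p = 0.0662, edgeR). It was chosen for naming after its values were seen. Slc7a1, the main arginine carrier of many cells, had 1 and 23 reads with nicotine and 86 and 63 with saline (-1.93 ± 0.63, adjusted p = 0.0846, edgeR). In the Slc7 family of cationic and large amino acid carriers, Slc7a15 had the least change at -0.04. In the Slc38 family of sodium-coupled amino acid carriers, Slc38a9, a lysosomal amino acid sensor, had the highest value at 0.70 ± 0.82 (adjusted p = 0.651, edgeR) and was -0.80 when scaled by all reads, while Slc38a2 had the lowest.

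Metal carriers had the class median nearest to that of all genes, -0.12 over 19 tested genes, with Slc39a10 higher and Slc11a1 lower. In the zinc import family Slc39, 1 of 7 genes was called, and the lowest was Slc39a9 with 0.812 and 2.24 CPM with nicotine and 5.21 and 4.57 CPM with saline (-1.41 ± 0.67, adjusted p = 0.235, edgeR). Among the 6 zinc exporters of the Slc30 family, Slc30a4, which loads zinc into vesicles, had 38.1 and 30.4 CPM with nicotine and 10.7 and 16.1 CPM with saline (1.34 ± 0.48, adjusted p = 0.114, edgeR). Slc30a1, the exporter of the plasma membrane, had 0 and 15 reads with nicotine and 10 and 41 with saline (-1.10 ± 0.93, adjusted p = 0.520, edgeR). Slc41a3, a magnesium carrier named after its values were seen, had 8.93 and 3.10 CPM with nicotine and 1.19 and 1.58 CPM with saline (1.92 ± 0.74, adjusted p = 0.142, edgeR).

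Sugar and monocarboxylate carriers had a median of -0.39 over 16 tested genes, with 1 called. In the hexose family Slc2, all 5 listed genes were tested. Beside Slc2a5, the lowest was Slc2a4, the insulin-regulated glucose carrier of muscle and fat, with 0 and 17 reads with nicotine and 78 and 33 with saline (-2.01 ± 0.80, adjusted p = 0.156, edgeR). Mitochondrial carriers had a median of -0.22 over 23 tested genes, with 0 called by edgeR and 1 at an unadjusted p under 0.05. They ranged from -0.99 for Slc25a30 to 1.31 for Slc25a24, an exchanger of adenine nucleotide and phosphate with 13 and 17 reads with nicotine and 25 and 6 with saline. DESeq2 called 0 mitochondrial carriers. The value of Slc25a24 was -0.23 when scaled by all reads, ran from 0.35 to 2.64 with 1 library left out, and passed without nicotine replicate 2 (2.24, adjusted p = 0.0331, edgeR). That of Slc25a30 was -1.64 without nicotine replicate 1 and -0.04 without nicotine replicate 2.

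Carriers of inorganic ions and bicarbonate had a median of -0.52 over 21 tested genes, with 0 called by edgeR or DESeq2 and 0 at an unadjusted p under 0.05 by edgeR. In the bicarbonate family Slc4 the values ran from -1.16 ± 0.59 for Slc4a8 to 0.44 ± 0.71 for the adaptor Slc4a1ap, and among carriers proper to 0.27 for Slc4a7, and both upper values were below 0 (-1.0 and -0.79) when scaled by all reads. In the sodium-proton exchanger family Slc9 the lowest value was -0.75, for Slc9a3. Carriers of nucleotide sugars, nucleosides and acetyl-CoA had a median of -0.32 over 16 tested genes, with Slc35a5 called. Slc35b2, which takes the sulphate donor into the Golgi, was the lowest of them at -1.13 ± 0.66 (adjusted p = 0.335, edgeR).

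Carriers of organic ions, vitamins, lipids and other solutes had a median of -0.34 over 23 tested genes, with Slco6d1 called. In the Slc22 family of organic cation and anion carriers, 4 of the 6 listed genes were higher in both nicotine libraries (27.4% of all tested genes), 2 of them untested, and Slc22a5 was the lowest at -0.45. Slc22a5 and Slc22a21 are close copies, so their reads may have been split or shared. A pair of genes of this class was named after the values were seen. Slco2a1, the prostaglandin carrier of vessels and other tissues, had 2.43 and 21.6 CPM with nicotine and 57.2 and 32.5 CPM with saline (-1.75 ± 0.73, adjusted p = 0.171, edgeR). It was -1.03 without nicotine replicate 1 and passed without nicotine replicate 2 (-4.11, adjusted p = 6.07e-05). Slc10a7, a relative of the bile salt carriers, had 28.4 and 14.0 CPM with nicotine and 7.30 and 7.09 CPM with saline (1.5 ± 0.52, adjusted p = 0.102, edgeR).

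**Figure D4:**
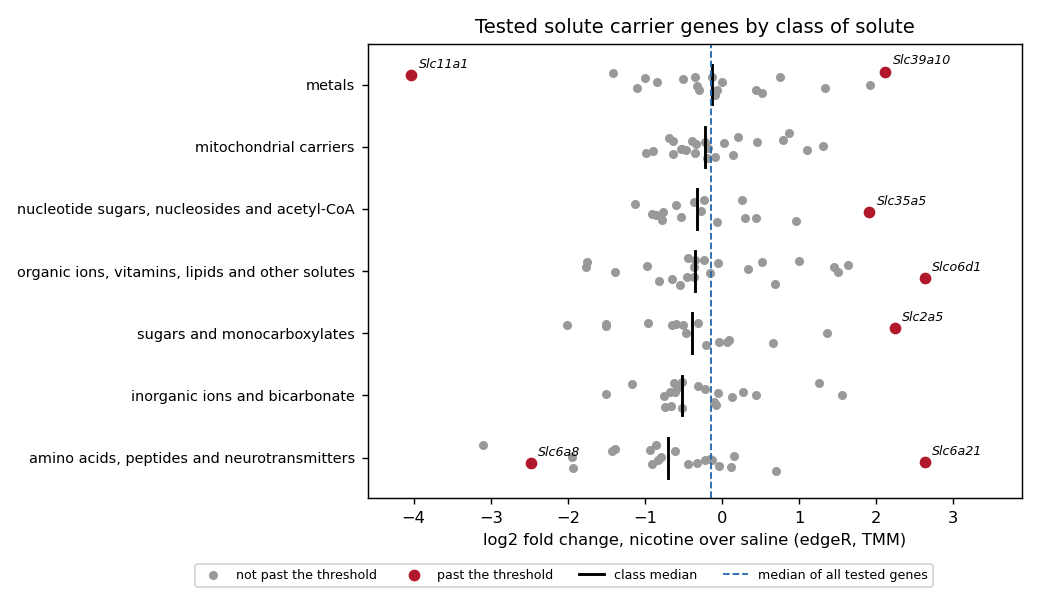
Log2 fold changes of nicotine over saline for the 140 tested solute carrier genes by class of solute, with 1 point per gene and red for called genes. Black bars are class medians, which run from -0.70 (amino acids) to -0.12 (metals), and the dashed line is the median of all tested genes, -0.14.

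Taken as shares of the reads outside Lars2 and Gm42418, the carriers held 0.323% and 0.614% with nicotine, and 0.798% and 0.881% with saline. Exact 95% intervals were 0.304 to 0.342% and 0.60 to 0.628% with nicotine, and 0.781 to 0.816% and 0.863 to 0.901% with saline. These intervals cover counting error only and leave out the spread between libraries. The means were 0.468 ± 0.206% and 0.840 ± 0.0589% (SD, n = 2 per group, exact permutation p = 0.333, two-sided). That is the smallest p that 2 libraries against 2 allow. On this scaling the median log2 fold change of all tested genes was -0.77 and that of the carriers -0.94. After TMM scaling the carriers summed to 939 and 1246 CPM with nicotine, and 1191 and 1293 CPM with saline, and the groups overlapped. In 6 of the 7 classes the share was lower in both nicotine libraries than in both saline libraries. Metal carriers were the exception, with 0.0533% and 0.0801% with nicotine and 0.0722% and 0.0921% with saline. Nicotine replicate 1 was lowest in every class.

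**Figure D5:**
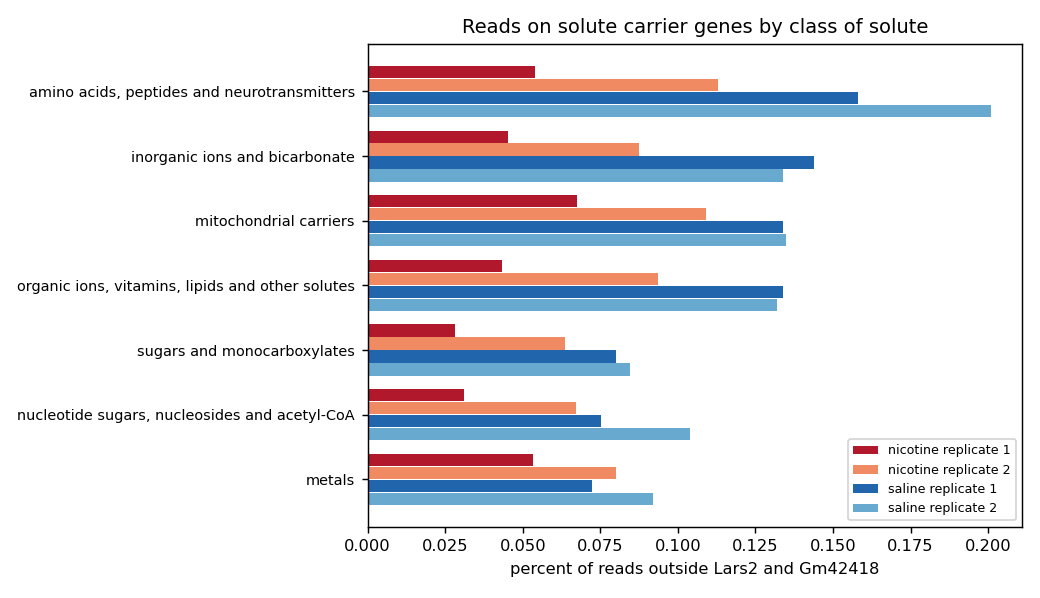
Percentage of reads, Lars2 and Gm42418 left aside, that lay on solute carrier genes of each class, with 1 bar per library from nicotine replicate 1 at the top to saline replicate 2 at the bottom of each set. Nicotine replicate 1 has the shortest bar in all 7 classes.

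Genes that work with carriers were examined as a list of 31, of which 18 were listed and 17 tested, and 5 rose while 0 fell, beside 8.27% and 0.931% of all tested genes. Atp1b3, a subunit of the sodium pump that powers sodium-coupled carriers, had 498 and 286 CPM with nicotine and 83.4 and 76.7 CPM with saline (2.29 ± 0.54, adjusted p = 0.0333, edgeR, n = 2 per group). Pdzk1, a scaffold that binds the tails of carriers, had 304 and 139 CPM with nicotine and 39.0 and 28.2 CPM with saline (2.72 ± 0.57, adjusted p = 0.0329, edgeR). Car2, a carbonic anhydrase that makes bicarbonate, had 99.0 and 70.7 CPM with nicotine and 21.4 and 20.2 CPM with saline (2.02 ± 0.48, adjusted p = 0.0339, edgeR). The bicarbonate-regulated adenylyl cyclase Adcy10 and the chloride channel Cftr also rose. The list's median was -0.11, close to that of all genes. Carriers of the solute carrier superfamily that bear other symbols numbered 54, with 25 listed and 24 tested. Of these 24, 2 rose, Flvcr2 and Mfsd9, and 0 fell, beside 8.27% and 0.931% of all tested genes. In 11 of the 24 both nicotine libraries lay below both saline libraries, and in 5 above, beside 31.0% below and 27.4% above over all tested genes. The median was -0.55.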

How the data were processed

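RNA of 2 nicotine and 2 saline sperm libraries was examined. The deposited tables give, per gene, estimated counts of reads and RPKM values that the authors computed. Per the submitters' processing notes, the tools were CASAVA and TopHat and the genome build was mm8. No source used here names the counting program. The counts were rounded to whole numbers, and the 1 line per table without a gene was left out. Of 8699 IDs, 8688 matched a symbol. Libraries held 3798794 to 5216745 reads. Intervals cover counting error only.

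Groups were compared with edgeR 4.0.16 (R 4.3.3, quasi-likelihood test, TMM scaling, filterByExpr with a minimum count of 10), with Benjamini-Hochberg adjustment over 8375 genes. The standard error is the log2 fold change divided by the root of F. Levels between genes are CPM per kilobase. The alternatives were 13, among them DESeq2 1.42.0 and limma 3.58.1. The code was tested on simulated counts with the same spread for every gene. That checks the code, and not the choice of scaling or the uneven spread of these libraries.

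Named with values were the called carriers, the 12 most abundant per length, the members of the germ cell and epididymis lists, and for families of 5 or more the most abundant member and those of highest and lowest change. 1 gene that this rule covers is not reported here. Members and lists were chosen with earlier results of these data known. Exons of 48 of the 144 genes overlap another gene, 43 of them on the opposite strand, and these values are uncertain where counting ignored strand. None of the 7 called carriers is among the 48.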

Additional observations from a re-analysis of the deposited data

How the results depend on the processing

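Over all genes, 693 were higher and 78 lower. Scaling by all reads gave 0 higher and 9 lower genes, and scaling by reads outside Lars2 and Gm42418 gave 0 and 0 by edgeR, with 2523 at an unadjusted p under 0.05. Both scalings gave 0 higher and 0 lower carriers. With limma-voom 46 genes and 0 carriers were lower. With the replicate number as a block, 1078 genes were higher and 279 lower, and 7 carriers were higher and 6 lower. The numbers do not pair the libraries by any label, and the replicate differences of the groups correlated at r = 0.173 over 8375 genes, so no call rests on the block. Leaving out 1 library gave 0 to 1515 higher and 9 to 824 lower genes, and 0 to 11 higher and 0 to 15 lower carriers. The carriers' median minus that of all genes was -0.20, and -0.47 to -0.10 with 1 library left out. DESeq2 and size factors called the same 7 carriers. Both other filters called 6 of the 7 (not Slc39a10), quantile normalisation 5 (not Slc39a10 or Slc11a1) and limma-voom 4 (not Slco6d1, Slc6a8 or Slc11a1). The cause of these shifts was not tested.

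Genes that changed sign all missed the threshold at the main setting. Scaled by all reads, the log2 fold change was -0.23 for Slc25a24, -0.18 for Slc25a39, -0.56 for Slc2a3, -1.06 for Slc38a6, -0.80 for Slc38a9, -1.0 for Slc4a1ap and -0.79 for Slc4a7. Scaled by reads outside Lars2 and Gm42418, it was -0.02 for Slc2a3, -0.53 for Slc38a6, -0.03 for Slc38a9, -0.27 for Slc4a1ap and -0.35 for Slc4a7. With limma-voom it was 0.09 for Slc26a3, -0.13 for Slc38a9 and -0.07 for Slc4a1ap. Quantile normalisation gave 0.04 for Slc2a8 and -0.29 for Slc38a6. Slc9a8 was 0.01 with size factors and 0.02 with DESeq2.
With 1 library left out, values ran from -2.86 to 0.25 for Slc22a5, from -0.77 to 0.26 for Slc26a3, from -7.26 to 0.19 for Slc30a1, from -1.24 to 0.27 for Slc35f2, from -0.12 to 0.43 for Slc38a6, from -0.45 to 1.82 for Slc38a9, from -0.32 to 1.32 for Slc4a1ap, from -0.20 to 0.68 for Slc4a7, from -1.26 to 0.57 for Slc7a15 and from -0.13 to 0.16 for Slc9a8. Without nicotine replicate 2, Slc24a3 and several other named genes that had missed the threshold passed, among them genes with values from 0.97 to 2.05 for Slc10a7, from -7.53 to -2.33 for Slc15a3, from 0.97 to 1.31 for Slc25a39, from -8.32 to -1.43 for Slc2a4, from 1.06 to 1.64 for Slc30a4, from -2.33 to -1.01 for Slc38a2, from 1.17 to 2.74 for Slc41a3, from -3.69 to -1.49 for Slc7a1 and from -1.51 to -0.09 for Slc9a3r1 over the libraries left out. The lowest values of Slc15a3, Slc2a4 and Slc30a1 are fitted against 0 reads in nicotine replicate 1 and are no bound. Depth limits the carriers most in nicotine replicate 1, where 112 of 144 had 10 reads or fewer.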
